A study of Mus musculus with 9 samples.

Results

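VEGF and angiopoietin signaling was followed in RNA-seq counts of mouse heart after ischemia and reperfusion. The 10 genes were taken from the count table by symbol, without use of any expression value, and make up 10 of its 54532 gene identifiers. They are the VEGF ligands Vegfa, Vegfb, Vegfc and Pgf, the VEGF receptors Flt1 and Kdr, the angiopoietins Angpt1 and Angpt2, their receptor Tek, and the peptide hormone precursor Apln. All 10 passed the filter on low counts in every comparison.

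All animals were male C57BL/6J mice, wild type and 8 to 10 weeks old, with 3 separate animals in each group. Sham mice underwent thoracotomy with a suture placed under the left anterior descending coronary artery and left untied. In MIRI mice (myocardial ischemia/reperfusion injury) the artery was ligated for 30 min and the heart was taken after 24 h of reperfusion. GXNI mice had the same ischemia and reperfusion and received Guanxinning Injection, a multi-component injection of traditional Chinese medicine, at 9 mL/kg through the tail vein within 10 min of ischemia, while mice not given the drug received saline by the same route. MIRI and GXNI hearts together are called I/R hearts below (n = 6). The labels name cardiomyocytes as the cell type, but the RNA was extracted from heart tissue and markers of other cells were read in all libraries. Levels are given as normalized CPM, the count scaled to the library size after TMM normalization over the 9 libraries. In these units the 16 endothelial cell markers summed to between 2992 and 3516 and the 10 cardiomyocyte markers to between 32836 and 51717. Of the endothelial sum, Cd36, which is not specific to endothelium, gave 1063 to 2152. The part of the heart that was taken is not given in the sources used here.

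Library totals ran from 17119454 to 22811295 counts, at which 3 counts equal 0.132 to 0.175 CPM. Within the I/R groups the libraries were not alike. On the first principal component of log2 CPM, which held 66.7% of the variance, the sham libraries lay between -55.5 and -48.8. MIRI 1 and MIRI 3 lay at 57.3 and 77.6, while MIRI 2 lay at -40.6, near sham. GXNI 1 and GXNI 2 lay at -40.4 and 16.6, while GXNI 3 lay at 88.0, beyond MIRI 3. The library nearest to MIRI 2 by Spearman correlation was GXNI 1 (rho = 0.982) and the library nearest to GXNI 3 was MIRI 3 (rho = 0.987). The deposited labels were kept throughout. From these positions and correlations alone, an exchange of the labels of MIRI 2 and GXNI 3 cannot be told apart from variation between animals. An exchange would alter every MIRI and GXNI mean and each comparison of a single I/R group. For the receptor gene Cxcr2 the deposited labels give means of 37.5 CPM in MIRI and 31.0 CPM in GXNI. By library it measured 57.8, 0.832 and 53.8 CPM in MIRI 1 to 3 and 2.60, 16.3 and 74.1 CPM in GXNI 1 to 3. The study reported a much larger fall of Cxcr2 with GXNI, and far more genes changed by GXNI than were called here. The cause of these differences was not tested here. Comparisons are therefore given with and without the libraries labelled MIRI 2 and GXNI 3, and all I/R hearts were also compared with sham, a contrast that does not depend on which I/R library belongs to which group.

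VEGF-A is the main stimulus of endothelial growth and permeability and acts through KDR (VEGFR2), the chief signaling receptor. FLT1 (VEGFR1) binds VEGF-A with high affinity and acts largely as a decoy, and it is the receptor of VEGF-B and placental growth factor (PGF). VEGF-C acts mainly on FLT4 of lymphatic endothelium. Angiopoietin 1, made by mural and other perivascular cells, activates TEK (TIE2) and stabilizes vessels, while angiopoietin 2 is released by activated endothelium and counteracts it in many settings. Apelin is secreted by sprouting endothelial tip cells and acts on the receptor APLNR. In heart, VEGFB is abundant in cardiomyocytes, and VEGFA and PGF respond to ischemia and hypoxia.

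Promoter sequences of RefSeq (assembly GRCm38.p6) were found for 8 of the 10 genes, with no entry used for Angpt1 and Angpt2. Vegfa and Pgf each had a pair of start sites, which gave 10 windows of 300 bases. The 250 bases before the start site are shown for Vegfa, the ligand known best for its induction by hypoxia, and for Pgf and Apln, whose levels differed most between libraries. Each is written 5′ to 3′ on the strand of the gene. Capitals mark the GC box GGGCGG on either strand, and no copy of the hypoxia-inducible factor core ACGTG occurs in these stretches. Sequence outside the windows of 300 bases was not searched, so a copy further away would not be seen.
Vegfa, chr17:46032378-46032627, reverse strand: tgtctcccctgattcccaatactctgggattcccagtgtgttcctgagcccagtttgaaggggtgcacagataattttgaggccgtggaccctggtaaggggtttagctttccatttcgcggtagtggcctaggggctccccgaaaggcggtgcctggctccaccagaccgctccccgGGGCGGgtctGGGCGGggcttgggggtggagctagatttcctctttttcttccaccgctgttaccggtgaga
Pgf, chr12:85177314-85177563, reverse strand: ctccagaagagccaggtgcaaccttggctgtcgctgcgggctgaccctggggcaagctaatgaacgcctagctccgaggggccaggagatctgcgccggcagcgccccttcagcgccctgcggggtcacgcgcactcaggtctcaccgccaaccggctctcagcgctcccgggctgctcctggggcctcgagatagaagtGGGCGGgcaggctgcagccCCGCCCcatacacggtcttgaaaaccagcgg
Apln, chrX:48034854-48035103, reverse strand: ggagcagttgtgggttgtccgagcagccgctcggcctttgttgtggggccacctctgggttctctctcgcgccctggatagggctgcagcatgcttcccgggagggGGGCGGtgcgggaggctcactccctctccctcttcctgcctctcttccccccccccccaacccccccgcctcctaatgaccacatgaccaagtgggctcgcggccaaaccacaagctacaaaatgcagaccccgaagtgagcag
The core ACGTG was found on either strand in 1 of the 10 windows, that of an internal Vegfa start site (chr17:46025114-46025413), and in 19.6% of the 32851 promoter windows of the same length. The GC box GGGCGG was found in 8 of the 10 windows and in 35.7% of all windows. The AP-1 letters TGANTCA occurred in 0 of the 10 windows and in 7.81% of all. None of these 3 letter patterns contains another. These matches are descriptions of the letters in a window and were not tested against the expression values.

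Across the sham hearts the ligand Vegfb and then Vegfa had the highest levels per kilobase of exon. Mean levels were 148 CPM per kb for Vegfb and 44.9 for Vegfa, and their sham libraries did not overlap. The receptors followed at 16.5 for Flt1, 15.3 for Kdr and 13.3 for Tek, with sham libraries that overlapped from each to the next. Angpt1 lay at 6.56 CPM per kb, above Pgf at 3.54, and Pgf, Vegfc at 2.18 and Apln at 1.76 overlapped from each to the next. Angpt2 was lowest at 0.883 CPM per kb. The order was the same at the top in I/R hearts, with MIRI and GXNI means of 130 and 125 CPM per kb for Vegfb and of 56.6 and 57.6 for Vegfa. Pgf came next by its means of 31.0 ± 31.8 in MIRI and 25.7 ± 32.9 in GXNI (SD, n = 3 each), a spread as wide as the mean. In GXNI 3 the level of Pgf was 63.5 CPM per kb and in MIRI 3 it was 65.7, above that of Flt1 in any library. These lengths are the union of annotated exons, not of the transcripts used in heart.

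Pgf, Angpt2 and Apln differed most between I/R and sham hearts, with I/R means that were 8.0, 4.04 and 5.56 times the sham means, but not in all I/R libraries. Their levels lay furthest above the sham range in MIRI 3 and GXNI 3, less far in MIRI 1 and GXNI 2, and within or below the sham range in MIRI 2 and GXNI 1. Angpt1 ran the other way, with its lowest levels in MIRI 3 and GXNI 3 and its highest in MIRI 2 and GXNI 1. None of the 10 genes passed the test of the deposited groups, which asked for a fold change of at least 1.5 at an unadjusted p of at most 0.01. How many of all genes have groups that do not overlap was not counted, so such separations are given below as description only. In heart tissue, fewer cells of a type and less RNA per cell cannot be told apart.

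**Figure D1:**
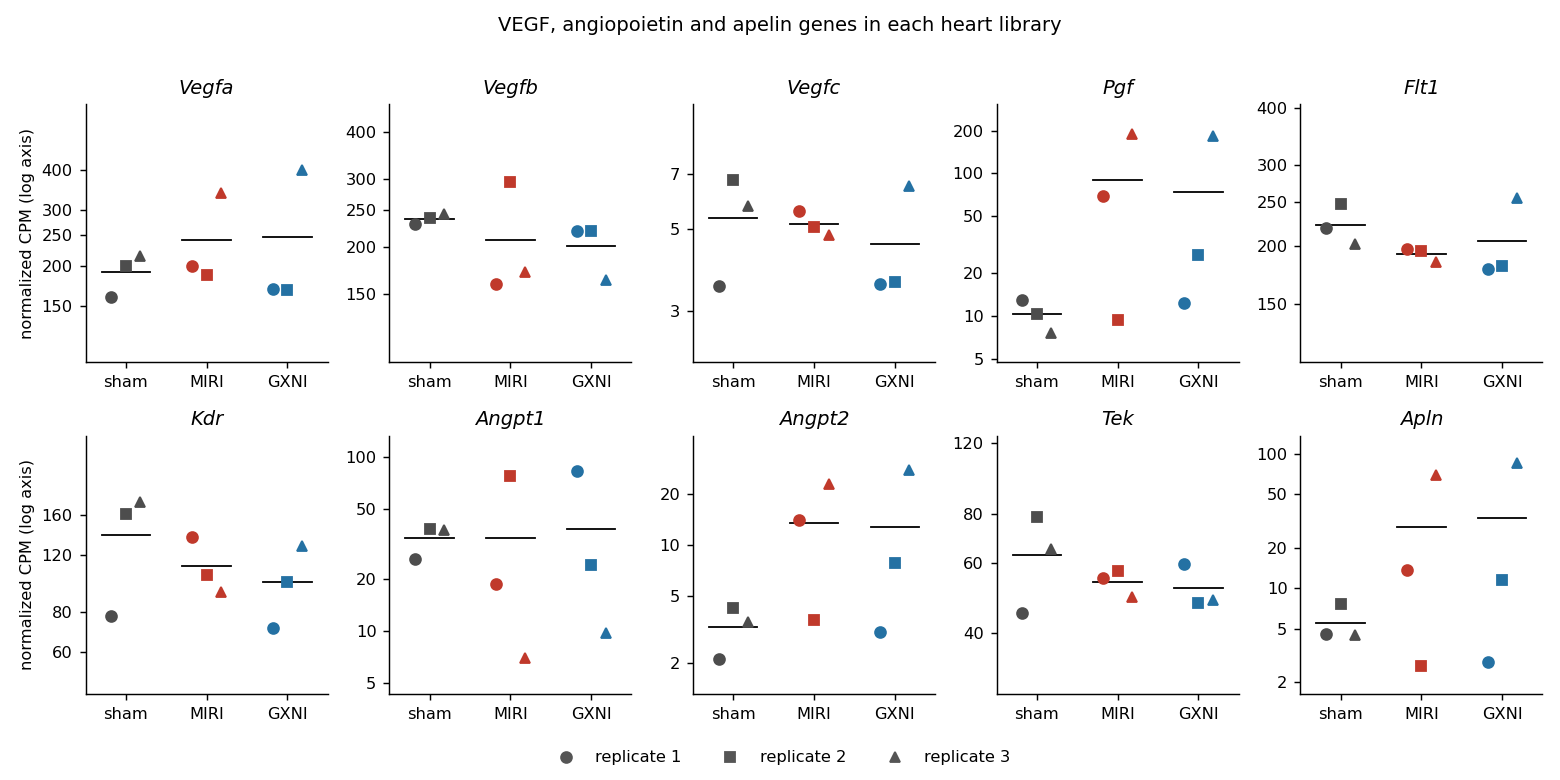
Normalized CPM of each gene (log axis) in the 9 libraries, by group, with the symbol giving the replicate number and the line the group mean (n = 3). Pgf, Angpt2 and Apln are highest in MIRI 3 and GXNI 3, where Angpt1 is lowest. Vegfb, Vegfc, Flt1 and Tek span less than a factor of 2.

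Vegfa (ENSMUSG00000023951, chr17:46016993-46032369, reverse strand, build GRCm38) had normalized CPM of 160, 201 and 216 in sham 1 to 3. It measured 200, 188 and 340 in MIRI 1 to 3 and 169, 169 and 402 in GXNI 1 to 3. The groups overlapped, and only MIRI 3 and GXNI 3 lay above all sham libraries. The group means were 192 ± 28.9 in sham, 243 ± 84.6 in MIRI and 247 ± 134 in GXNI (SD, n = 3 each). The fitted log2 fold change of I/R against sham was 0.35 with a standard error (SE) of 0.31, which did not pass the test of edgeR (unadjusted p = 0.2854, adjusted p = 0.4477 over all genes tested).

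Vegfb (ENSMUSG00000024962, chr19:6982473-6987651, reverse strand) encodes the FLT1 ligand that is abundant in heart muscle. Its CPM were 230, 238 and 243 in sham, the narrowest spread relative to the mean of the 10 genes in that group, with 159, 294 and 172 in MIRI and 219, 220 and 164 in GXNI. The 3 GXNI libraries all lay below the 3 sham libraries, and so did MIRI 1 and MIRI 3, while MIRI 2 was the highest of all 9. The log2 fold change of I/R against sham was -0.21 (SE 0.19, edgeR unadjusted p = 0.3015, adjusted p = 0.465). Vegfc (ENSMUSG00000031520, chr8:54077606-54187096, forward strand), the lymphatic ligand, was read at 3.49, 6.74 and 5.76 CPM in sham, 5.58, 5.05 and 4.81 in MIRI, and 3.55, 3.60 and 6.51 in GXNI. No I/R library lay outside the sham range, and the log2 fold change was -0.14 (SE 0.26, adjusted p = 0.734).

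Pgf (ENSMUSG00000004791, chr12:85166635-85177790, reverse strand), the gene of placental growth factor, had CPM of 12.9, 10.4 and 7.57 in sham 1 to 3. In MIRI 1 to 3 it measured 69.8, 9.39 and 191. In GXNI 1 to 3 it measured 12.4, 26.7 and 184. Of the 6 I/R libraries, 4 lay above all sham libraries, and MIRI 2 and GXNI 1 lay inside the sham range, so that the highest I/R library held 20.3 times the lowest. The group means were 10.3 ± 2.66, 89.9 ± 92.3 and 74.5 ± 95.5 CPM (SD, n = 3 each). The log2 fold change of I/R against sham was 3.0 (SE 1.05, edgeR unadjusted p = 0.01758, adjusted p = 0.1117), and that of MIRI against sham was 3.14 (SE 0.94, unadjusted p = 0.01218, adjusted p = 0.1079).

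Flt1 (ENSMUSG00000029648, chr5:147561604-147726011, reverse strand) and Kdr (ENSMUSG00000062960, chr5:75932827-75978458, reverse strand) encode the VEGF receptors of endothelium. Flt1 measured 219, 247 and 202 CPM in sham, 198, 196 and 185 in MIRI, and 179, 181 and 255 in GXNI. The MIRI libraries all lay below the sham libraries, as did GXNI 1 and GXNI 2, while GXNI 3 was the highest library of all. Kdr measured 77.9, 162 and 176 CPM in sham, 136, 105 and 92.4 in MIRI, and 71.3, 99.0 and 128 in GXNI. Sham 1 stood far below the other sham libraries for Kdr, and 1 I/R library lay below it, while all I/R libraries lay below sham 2 and sham 3. The log2 fold changes of I/R against sham were -0.16 for Flt1 (SE 0.13, edgeR unadjusted p = 0.2569, adjusted p = 0.4193) and -0.40 for Kdr (SE 0.27, edgeR unadjusted p = 0.1683, adjusted p = 0.3229). Without sham 1 the log2 fold change of Kdr was -0.68 (SE 0.22, edgeR unadjusted p = 0.01408, adjusted p = 0.2362). It was -0.28 without sham 2 and -0.18 without sham 3.

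Angpt1 (ENSMUSG00000022309, chr15:42424723-42676977, reverse strand), the TEK agonist, measured 25.8, 38.7 and 37.9 CPM in sham, 18.6, 77.4 and 6.95 in MIRI, and 82.7, 24 and 9.76 in GXNI. Every I/R library lay outside the sham range, with 2 above it and 4 below, and the group means of 34.1 ± 7.22, 34.3 ± 37.7 and 38.8 ± 38.7 CPM (SD, n = 3 each) did not show it. The log2 fold change of I/R against sham was 0.10 (SE 0.74, edgeR adjusted p = 0.9363). The antisense gene Gm17473 shares 737 exon bases with Angpt1 and had 149 counts in total over the 9 libraries. Since the strand setting of the counting is not given in the sources used here, reads from the shared bases cannot be assigned.

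Angpt2 (ENSMUSG00000031465, chr8:18690263-18741562, reverse strand), the context-dependent antagonist, measured 2.10, 4.21 and 3.47 CPM in sham. In MIRI it measured 14.1, 3.57 and 22.9 CPM, and in GXNI 3.05, 7.84 and 27.5 CPM. As for Pgf, 4 of 6 I/R libraries lay above all sham libraries and MIRI 2 and GXNI 1 lay inside the sham range. The log2 fold change of I/R against sham was 2.01 (SE 0.74, edgeR unadjusted p = 0.0218, adjusted p = 0.1197). The gene lies opposite Mcph1 on the other strand, which shares 0 exon bases with it.

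Tek (ENSMUSG00000006386, chr4:94739289-94874976, forward strand), the receptor of both angiopoietins, measured 45, 78.3 and 65.2 CPM in sham, 55.1, 57.4 and 49.4 in MIRI, and 59.6, 47.7 and 48.5 in GXNI. All I/R libraries lay inside the sham range (log2 fold change -0.25, SE 0.16, edgeR unadjusted p = 0.1619, adjusted p = 0.3152). The lower end of that range was set by sham 1, and all I/R libraries lay below sham 2 and sham 3. Without sham 1 the log2 fold change of Tek was -0.44 (SE 0.14, edgeR unadjusted p = 0.01166, adjusted p = 0.2362). It was -0.06 without sham 2 and -0.22 without sham 3.

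Apln (ENSMUSG00000037010, chrX:48025146-48034853, reverse strand), the apelin precursor, measured 4.57, 7.58 and 4.48 CPM in sham, 13.6, 2.61 and 69.5 in MIRI, and 2.80, 11.4 and 84.9 in GXNI. It had the widest range of the 10 genes, with 32.5 times more in GXNI 3 than in MIRI 2. Of the I/R libraries, 4 lay above all sham libraries and the other 2, MIRI 2 and GXNI 1, lay below all of them. The log2 fold change of I/R against sham was 2.47 (SE 1.16, edgeR unadjusted p = 0.05964, adjusted p = 0.1849).

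MIRI hearts were compared with sham to ask what ischemia and reperfusion changed. No member was called, against 6.15% of the 14644 genes tested called higher and 2.82% called lower. Angpt2 stood at a log2 fold change of 2.06 (SE 0.64, edgeR unadjusted p = 0.01434, adjusted p = 0.1128) and Apln at 2.38 (SE 1.02, unadjusted p = 0.05219, adjusted p = 0.1796), and the other members besides Pgf lay between -0.31 and 0.34. Without MIRI 2, 4 members were called at this threshold, Pgf (3.67, SE 0.42, unadjusted p = 3.592e-05, adjusted p = 0.000671), Angpt2 (2.5, SE 0.31, unadjusted p = 6.767e-05, adjusted p = 0.000959), Apln (2.91, SE 0.61, unadjusted p = 0.00171, adjusted p = 0.007609) and, as lower, Angpt1 (-1.42, SE 0.39, unadjusted p = 0.007333, adjusted p = 0.02219), by edgeR's quasi-likelihood test with Benjamini-Hochberg adjustment. In that fit 16.9% of all genes were called higher and 13.3% lower, so the members were called along with many other genes. Without MIRI 3 none was called, and the log2 fold changes were 1.96 for Pgf (SE 0.76), 1.44 for Angpt2 (SE 0.60) and 0.56 for Apln (SE 0.66). DESeq2 on all 6 libraries called Pgf (3.14, SE 1.04, unadjusted p = 0.002566, adjusted p = 0.02827) and Angpt2 (2.06, SE 0.59, unadjusted p = 0.0004686, adjusted p = 0.008934) as higher, where it called 5.34% of genes higher and 2.72% lower.

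GXNI hearts were compared with sham in the same way, with the same 3 sham libraries. No member was called, against 2.67% of genes higher and 1.54% lower. The log2 fold changes were 2.87 for Pgf (SE 0.98, edgeR unadjusted p = 0.02229, adjusted p = 0.223), 1.98 for Angpt2 (SE 0.77, adjusted p = 0.2354) and 2.59 for Apln (SE 1.12, adjusted p = 0.2559). Without GXNI 1 these 3 genes were called, at log2 fold changes of 3.38, 2.45 and 3.13 and adjusted p from edgeR of 0.03234, 0.03466 and 0.04051, where 10.7% of genes were called higher and 7.08% lower. Without GXNI 3 none was called, and the log2 fold changes were 0.93 for Pgf (SE 0.36), 0.74 for Angpt2 (SE 0.46) and 0.36 for Apln (SE 0.56). DESeq2 called Pgf and Angpt2, at adjusted p of 0.09612 and 0.06182, with 3.56% of genes called higher and 1.46% lower.

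GXNI hearts were compared with MIRI hearts to ask what the treatment changed. None of the 10 members was called by edgeR, and 0% of the 14762 genes were called higher and 0.0203% lower. Over all genes, 47 had an unadjusted p under 0.05 and 0 an adjusted p of at most 0.05, and DESeq2 gave 91 and 0. The log2 fold changes of the members ran from -0.26 (Pgf, SE 1.24) to 0.22 (Apln, SE 1.41), with an adjusted p of 1 for each. For the 4 members that varied most, standard errors of 0.90 to 1.41 leave large differences in either direction undetected. Without the libraries labelled MIRI 2 and GXNI 3, which leaves 2 against 2, Pgf was called lower in GXNI (-2.72, SE 0.57, edgeR unadjusted p = 0.003317, adjusted p = 0.188), where 3.47% of genes were called lower and 1.52% higher. In that fit Angpt2 stood at -1.75 (SE 0.48, unadjusted p = 0.01082), Apln at -2.53 (SE 0.91, unadjusted p = 0.0326) and Angpt1 at 2.07 (SE 0.69, unadjusted p = 0.0248), none of which passed. Vegfa, Vegfb, Flt1, Tek and Apln had the opposite sign in that fit, and with 1 library left out Pgf ranged from -2.19 to 0.91, Angpt2 from -1.30 to 0.53 and Angpt1 from -1.02 to 1.62. The size and the sign of the difference between GXNI and MIRI thus depended on which libraries were compared.

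The contrast of all 6 I/R hearts with the 3 sham hearts called no member either, against 5.52% of the 15207 genes called higher and 2.85% lower. Without MIRI 2 it called Pgf (3.23, SE 0.91, edgeR unadjusted p = 0.005966, adjusted p = 0.05013) and Angpt2 (2.21, SE 0.66, unadjusted p = 0.008769, adjusted p = 0.05653), with 9.67% of genes called higher and 4.76% lower. Without GXNI 1 it called the same genes, with 9.57% higher and 5.7% lower. Without both MIRI 2 and GXNI 3 no member passed, with 6.6% of genes called higher and 3.24% lower, and Pgf stood at 2.87 (SE 0.88, unadjusted p = 0.01105, adjusted p = 0.09026). DESeq2 called Pgf and Angpt2 on all 9 libraries, at adjusted p of 0.02563 and 0.02223, with 5.18% of genes called higher and 2.3% lower. Without the filter on low counts, edgeR called Pgf and Angpt2 here (4.18% of genes higher, 2.24% lower) and in GXNI against sham (3.57% higher, 1.52% lower), and Pgf, Angpt2 and Apln in MIRI against sham (5.75% higher, 2.88% lower).

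**Figure D2:**
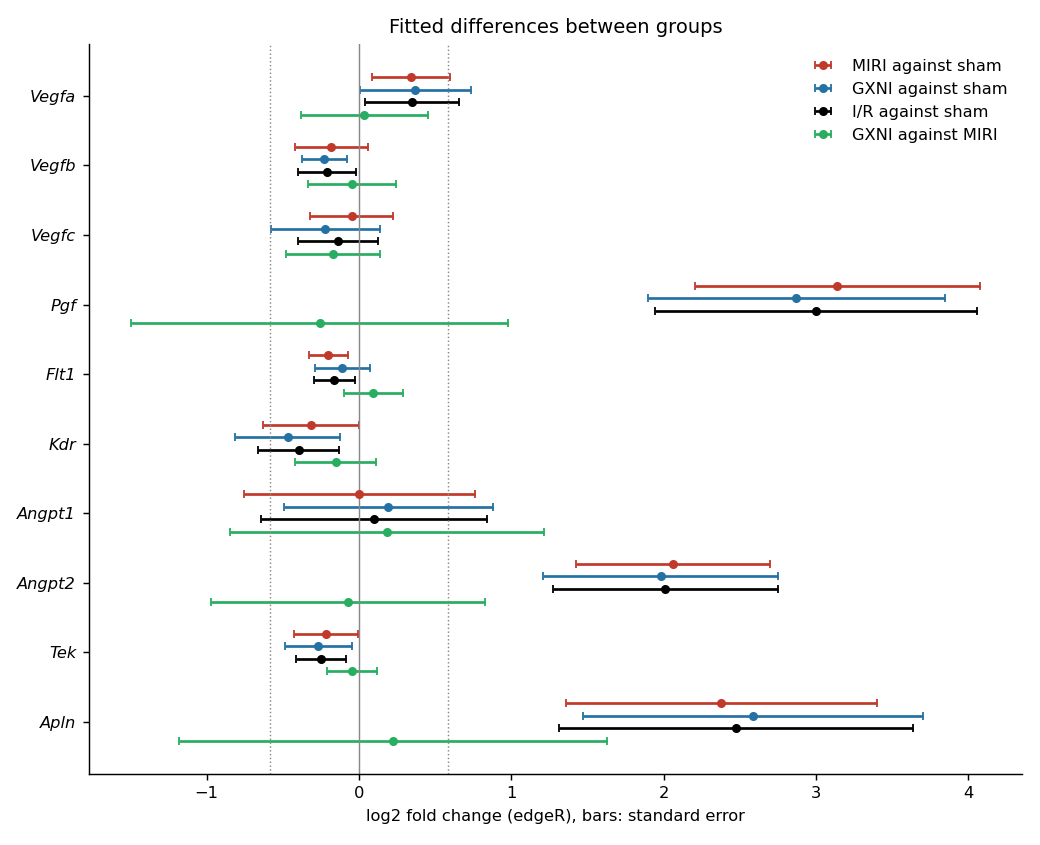
Log2 fold changes of the 10 genes fitted by edgeR in the 4 comparisons, with bars of 1 standard error and dotted lines at a fold change of 1.5. Pgf, Angpt2 and Apln lie between 1.98 and 3.14 in the 3 comparisons with sham, with standard errors of 0.64 to 1.16, and near 0 in GXNI against MIRI.

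Ratios between members within a library need no scaling between libraries. For 3 ratios and 5 levels relative to endothelial markers, I/R was set against sham by exact permutation, two-sided, where the smallest possible p was 0.02381. The log2 ratio of Angpt2 to Angpt1, the antagonist over the agonist of TEK, was -3.60, -3.19 and -3.44 in sham 1 to 3. It was -0.40, -4.43 and 1.72 in MIRI and -4.75, -1.61 and 1.49 in GXNI. In MIRI 3 and GXNI 3 the normalized level of Angpt2 thus exceeded that of Angpt1, while MIRI 2 and GXNI 1 lay below all sham libraries. The mean difference of 2.08 was not detectable against this spread (exact permutation p = 0.2619, adjusted p = 0.3492 over the 8 quantities).

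The log2 ratio of Pgf to Vegfb, both ligands of FLT1, lay between -5.00 and -4.15 in sham. It was -1.19, -4.97 and 0.15 in MIRI and -4.14, -3.04 and 0.17 in GXNI, so that Pgf and Vegfb had similar normalized CPM in MIRI 3 and GXNI 3. This ratio takes no account of exon length. Per kilobase of exon, Pgf did not exceed 65.7 CPM in any library and Vegfb did not fall below 99.3 CPM. In 5 of 6 I/R libraries the ratio lay above every sham library, GXNI 1 by only a little, and the mean difference was 2.39 (exact permutation p = 0.09524, adjusted p = 0.1904). The log2 ratio of Kdr to Flt1 averaged -0.77 ± 0.66 in sham and -0.94 ± 0.26 in I/R hearts (SD, n = 3 and 6, exact permutation p = 0.5476). Its I/R libraries all lay inside the sham range.

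**Figure D3:**
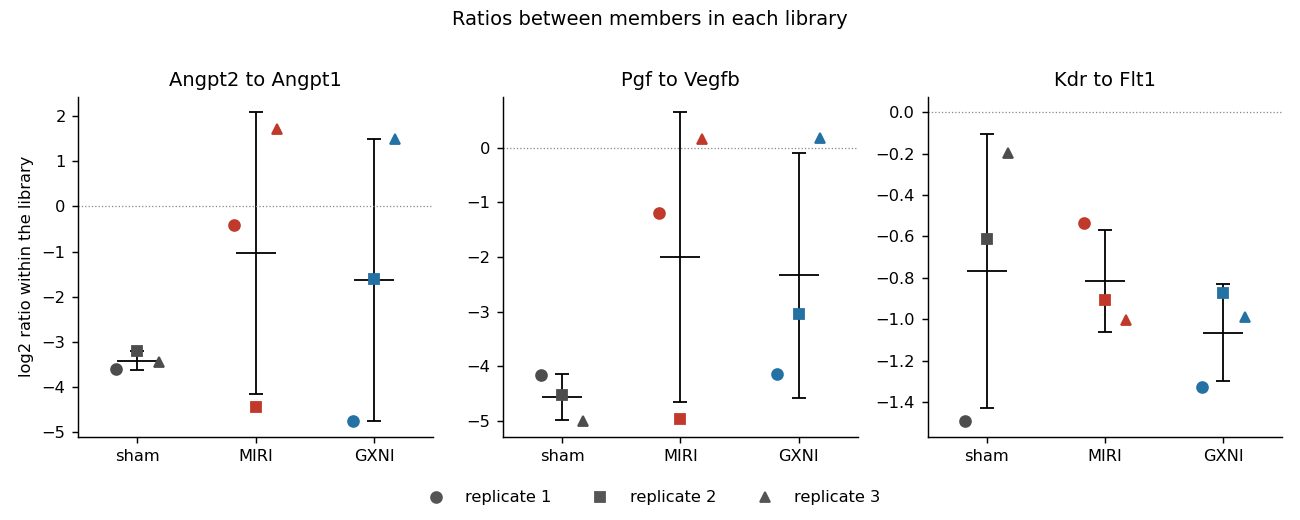
Log2 ratios between members within each library, by group, with bars for the mean and SD (n = 3). Angpt2 to Angpt1 and Pgf to Vegfb lie within a narrow range in sham and spread over more than 5 log2 units in I/R hearts, and Kdr to Flt1 does not.

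Since Flt1, Kdr, Tek, Angpt2 and Apln are expressed mainly by endothelial cells, their log2 CPM was also set relative to the mean of the 16 endothelial cell markers. That mean was 5.97 to 6.10 log2 CPM in sham and 5.97 to 6.76 in I/R hearts, with 5 of 6 I/R libraries above all sham libraries. Relative to it, Flt1 was 1.76, 1.85 and 1.69 in sham, 1.25, 1.64 and 0.92 in MIRI, and 1.23, 1.32 and 1.23 in GXNI. All 6 I/R libraries lay below all 3 sham libraries, a difference of -0.50 (exact permutation p = 0.02381, the smallest possible, adjusted p = 0.1904 over the 8 quantities). Kdr stood at 1.0 ± 0.65 in sham and 0.33 ± 0.37 in I/R hearts (difference -0.67, exact permutation p = 0.09524), and Tek at -0.09 ± 0.38 and -0.64 ± 0.38 (difference -0.55, exact permutation p = 0.07143, SD, n = 3 and 6).

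The markers themselves did not all move one way. No endothelial marker was called in I/R against sham, 12 of 16 had a log2 fold change above 0, and their median was 0.30. Cldn5, a tight junction gene, measured 24.9, 14.5 and 25.5 CPM in sham and 21.5 to 131 CPM in I/R hearts. Fabp4, a fatty acid carrier of capillaries, lay below sham in 6 of 6 I/R libraries with a log2 fold change of -0.40 (SE 0.11, edgeR unadjusted p = 0.005061, adjusted p = 0.08754), under the required fold. The part of the marker list in the relative levels of the members was not tested. Angpt2 relative to the markers was 1.27 higher in I/R hearts (exact permutation p = 0.119) and Apln 1.02 higher (exact permutation p = 0.4762).

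**Figure D4:**
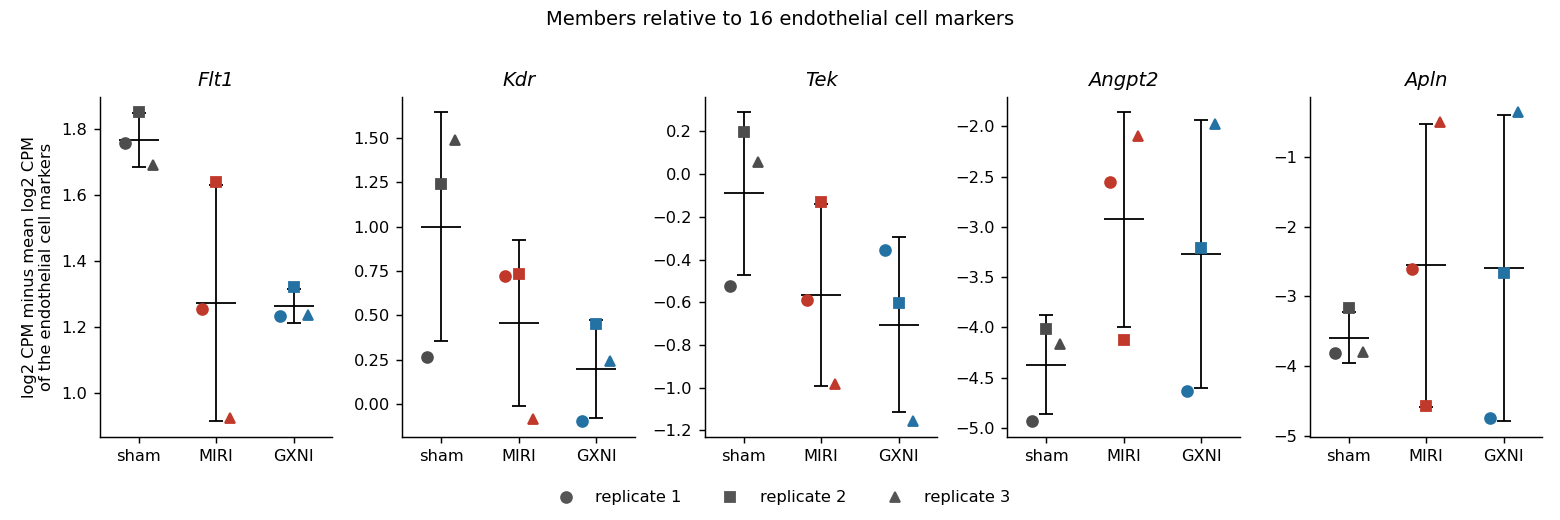
Log2 CPM of 5 genes minus the mean log2 CPM of 16 endothelial cell markers in each library, by group, with bars for the mean and SD (n = 3). For Flt1 all 6 I/R libraries lie below the 3 sham libraries, for Angpt2 4 I/R libraries lie above the sham libraries and 2 among them, and for Apln 4 lie above and 2 below.

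Other genes of these pathways were read as a list of 19, of which 17 passed the filter in I/R against sham. Of these, 2 were called higher and 0 lower, with a median log2 fold change of 0.25 beside 0.01 over all genes tested. Both called genes encode signaling adaptors. Shb, which binds KDR, measured 16.1, 16 and 19.8 CPM in sham, 72.8, 38.8 and 108 in MIRI and 27.8, 70.6 and 91.5 in GXNI (log2 fold change 1.98, SE 0.41, edgeR unadjusted p = 0.0007461, adjusted p = 0.07943). Shc1, an adaptor of many receptor tyrosine kinases, rose by 0.72 (SE 0.18, unadjusted p = 0.002396, adjusted p = 0.0852). For both, all 6 I/R libraries, MIRI 2 and GXNI 1 included, lay above all sham libraries. Without MIRI 2 and GXNI 3, 3 genes of the list were called higher and 0 lower.

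The receptors and co-receptors outside the 10 genes did not pass the test. Flt4, the receptor of VEGF-C, measured 22.6, 19.7 and 20.7 CPM in sham, 35.6, 25.0 and 46.3 in MIRI and 24.2, 28.5 and 40.1 in GXNI, with all I/R libraries above sham (log2 fold change 0.66, SE 0.22, edgeR unadjusted p = 0.01289, adjusted p = 0.1053). Nrp2, a co-receptor of VEGF-C, stood at 0.72 (SE 0.29), with 4 of 6 I/R libraries above sham, and Nrp1, a co-receptor of VEGF-A, at -0.20 (SE 0.20). Tie1, the partner of TEK, had a log2 fold change of 0.00 (SE 0.12), and Ptprb, the phosphatase that restrains TEK, of -0.33 (SE 0.15) with 4 of 6 I/R libraries below sham.

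Aplnr, the apelin receptor, ran opposite to its ligand in the means but on an uneven sham group. It measured 4.68, 17.2 and 18.5 CPM in sham, 5.16, 5.82 and 7.43 in MIRI, and 6.10, 8.04 and 5.23 in GXNI. Sham 1 was the lowest of the 9 libraries and all I/R libraries lay between it and the other sham libraries (log2 fold change -1.09, SE 0.35, edgeR unadjusted p = 0.0115, adjusted p = 0.1023). Vegfd, a ligand of FLT4, measured 3.47 to 4.78 CPM in sham, with 5 of 6 I/R libraries below it and GXNI 1 above at 5.90 (log2 fold change -1.02, SE 0.70, edgeR unadjusted p = 0.1748). Angpt4, another angiopoietin, did not exceed 0.591 CPM in any library, and Apela, another ligand of APLNR, had 0 counts in all 9, which allows at most 0.132 to 0.175 CPM.

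Without the libraries labelled MIRI 2 and GXNI 3, GXNI against MIRI called 2 of 17 genes of this list as lower, Nrp2 at -0.79 (SE 0.20, edgeR unadjusted p = 0.007267) and Nos3, the endothelial nitric oxide synthase, at -0.91 (SE 0.23, edgeR unadjusted p = 0.007506), each with an adjusted p of 0.1889. With all 6 libraries it called 0 (median -0.06). MIRI against sham and GXNI against sham, which share the sham libraries, called 2 higher and 0 lower each, of 17 and 16 genes tested.

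Several sprouting and VEGF-response genes of endothelium rose in all I/R libraries. Of the 15 genes of that list, all tested in I/R against sham, 5 were called higher and 0 lower, and the median log2 fold change was 1.5. Without MIRI 2 and GXNI 3, 5 of 14 tested were called higher and 0 lower. Nr4a1, an immediate early gene that VEGF induces in endothelium, measured 8.92, 14.6 and 10.1 CPM in sham, 68.8, 67.7 and 62.7 in MIRI, and 119, 43.3 and 78.9 in GXNI (log2 fold change 2.71, SE 0.32, edgeR unadjusted p = 8.747e-06, adjusted p = 0.02198). Its I/R libraries were all above sham, with MIRI 2 and GXNI 1 as high as the rest.

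The other called genes of this list were Egr3 (3.04, SE 0.82), a transcription factor, Dusp5 (2.61, SE 0.68), a phosphatase of ERK, Rcan1 (2.23, SE 0.54), an inhibitor of calcineurin, and Plvap (1.5, SE 0.37), which forms the diaphragms of endothelial fenestrae. Their unadjusted edgeR p ran from 0.002035 to 0.00416 and each had 6 of 6 I/R libraries above sham. Several of these genes also respond to stress and calcium in other cells of the heart, and the cell that expressed them was not measured. Esm1, a tip cell marker, and Pdgfb, the signal by which tip cells recruit pericytes, had log2 fold changes of 0.02 (SE 0.70) and -0.01 (SE 0.20). The list averaged 2.58 to 2.99 log2 CPM in sham, 4.12, 3.10 and 5.03 in MIRI 1 to 3 and 3.17, 3.45 and 5.11 in GXNI 1 to 3. MIRI 2 and GXNI 1 were thus above sham but by the smallest margins. In MIRI against sham 6 of 14 were called higher, in GXNI against sham 4 of 14, and in GXNI against MIRI 0 of 15, with 0 called lower in each. Without MIRI 2 and GXNI 3, GXNI against MIRI called 5 lower, with a median of -1.40.

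Hypoxia-inducible genes were read as a list of 15, with 1 called higher and 1 lower in I/R against sham and a median of 0.55. Egln3, a prolyl hydroxylase that hypoxia induces, stood at 2.32 (SE 0.67, edgeR unadjusted p = 0.006201, adjusted p = 0.08972) and Vldlr, a lipoprotein receptor, at -0.99 (SE 0.30, edgeR unadjusted p = 0.00844, adjusted p = 0.09465). Vldlr is known as a hypoxia-induced gene and here lay below sham in 6 of 6 I/R libraries, at 343 to 406 CPM in sham and 111 to 319 in I/R. The list as a whole averaged 5.73 to 5.84 log2 CPM in sham and was highest in MIRI 3 and GXNI 3, at 7.07 and 7.08, the same libraries in which Vegfa, Pgf, Angpt2 and Apln were highest.

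Markers of other cells moved with these genes. The 12 neutrophil markers summed to between 33.7 and 68.0 CPM in sham, to 822, 30.6 and 750 CPM in MIRI 1 to 3 and to 57.3, 250 and 806 CPM in GXNI 1 to 3. The libraries high in Pgf, Angpt2 and Apln were thus those high in neutrophil markers. In I/R against sham 11 of the 12 were tested, all with a log2 fold change above 0 and with a median log2 fold change of 3.05. Of these, 1 was called, Trem1, a receptor of myeloid cells (5.48, SE 1.66, edgeR unadjusted p = 0.008097, adjusted p = 0.09404). Without MIRI 2 and GXNI 3, 9 of the 11 were called higher. Ly6g, the defining surface marker, did not exceed 0.844 CPM in any library. The 10 cardiomyocyte markers averaged 11.79 to 11.88 log2 CPM in sham and 11.25 to 11.64 in the I/R libraries except MIRI 2, which stood at 11.96. The part of either list in the levels of the 10 genes was not tested.

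The remaining lists held few called genes. Of 12 pericyte and smooth muscle markers (median -0.06), Mcam was called higher (1.33, SE 0.35). Abcc9, a channel subunit not specific to pericytes, was called lower (-0.97, SE 0.27). The mean of the list stayed within 5.17 to 5.25 log2 CPM in all I/R libraries. Of 6 lymphatic markers 5 were tested, 2 of them with a log2 fold change above 0 (median -0.31). Pdpn, which other stromal cells also express, was called higher (2.58, SE 0.68). No gene was called among 10 fibroblast markers (median -0.33), 11 macrophage and monocyte markers (median 0.00), 4 of 6 platelet markers tested (median 0.59), 5 of 7 atrial markers tested (median -0.09) or 2 of 7 adipocyte markers tested (median 1.39). Of 9 mesothelial markers Krt18 (2.15, SE 0.39), a keratin, and Wt1 (1.16, SE 0.27), a transcription factor, were called higher. The list did not move as 1, with 5 of 9 log2 fold changes above 0 and a median of 0.27. Upk1b and Muc16 lay below all sham libraries in 5 of 6 I/R libraries and above them in GXNI 1.

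The mesothelial and adipocyte lists varied among libraries of the same group. Relative to the sham mean, mesothelial markers stood at 2.38 log2 units in GXNI 1 and at -2.65 and -2.81 in MIRI 1 and GXNI 3. The adipocyte markers stood at 3.75 in MIRI 2, which also had the highest mean of atrial markers at 1.61. Both lists hold genes near the floor, such as Adipoq and Lep at 0.178 CPM in MIRI 2. The abundant Scd1 measured 30.7 CPM in MIRI 2 and 11.4 to 15.3 in sham. Nppa, the most abundant atrial marker, measured 165 CPM in MIRI 2, less than in MIRI 1, MIRI 3 and GXNI 3. Myl4, Myl7 and Sln were highest of all libraries in MIRI 2, at 3.51, 1.78 and 1.37 CPM. Bmp10 was read only there, at 0.0594 CPM, and Nr2f2 and Stard10 were not highest there. GXNI 1 and MIRI 2 are the libraries with the highest Angpt1, and the part of the mesothelial, adipocyte and atrial markers in it was not tested.

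**Figure D5:**
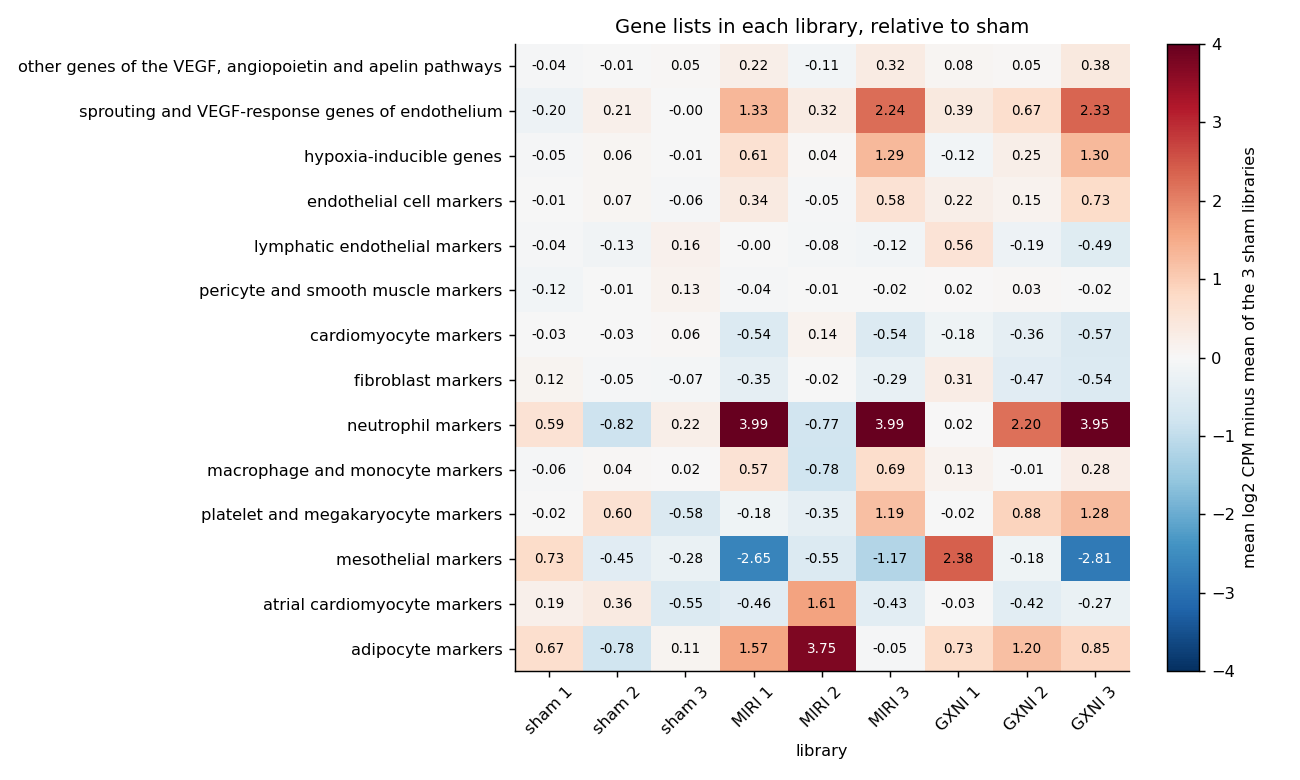
Mean log2 CPM of each gene list in each library minus the mean of the 3 sham libraries, for the 14 lists. Neutrophil markers stand at 3.99, 3.99 and 3.95 in MIRI 1, MIRI 3 and GXNI 3 and at -0.77 and 0.02 in MIRI 2 and GXNI 1, and the sprouting and hypoxia lists are also highest in MIRI 1, MIRI 3 and GXNI 3.

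The genes whose log2 CPM followed each member most closely over the 9 libraries were ranked by Pearson's r among 15204 others, as a description in which all points share the same 9 libraries. For Pgf they were Snhg6, Pgm2 and Hilpda (r from 0.993 to 0.996), and for Angpt2 Agpat4, Aldh1a3 and Snhg15 (0.994 to 0.995). For Apln they were Ssh1, Cxcr4 and Itpripl2 (0.985 to 0.988), of which Cxcr4 is on the sprouting list. For Angpt1 they were Prelp, Pla2g4e and Gm24474 (0.977 to 0.984), for Vegfb Sod2, Cyc1 and Cdk16 (0.983 to 0.987) and for Vegfa Dll1, Cd109 and Sox9 (0.958 to 0.972). For Tek they were Rasgrp3, Hacd4 and Ephb3 (0.929 to 0.960), for Flt1 Rabep1, Scgb1c1 and Kansl1 (0.900 to 0.962), for Vegfc Nr3c1, Prickle2 and Acvr2a (0.899 to 0.939), and for Kdr 5830448L01Rik, Gm6736 and Gimap4 (0.880 to 0.885).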

How the data were processed

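RNA of heart tissue from 3 sham, 3 MIRI and 3 GXNI (9 mL/kg) mice was sequenced. Per the study, reads were cleaned and then aligned by HISAT2, and the authors used featureCounts to obtain counts. The submitters' processing notes name the build mm10 and also DESeq2. Versions, annotation and strand setting are not given in the sources used here. The deposited values are whole-number counts, without normalization, for 54532 gene identifiers, of which 54409 matched a symbol of GENCODE M21 (GRCm38), the source of coordinates and exon lengths. There were 0 columns of other samples.

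Each comparison was fitted on its own libraries, grouped by the labels, with edgeR 4.0.16 in R 4.3.3 (TMM, default filter, quasi-likelihood F test, no covariates). Calls required both a 1.5-fold difference in either direction and an unadjusted p no larger than 0.01, which are the thresholds the study used. Benjamini-Hochberg adjusted p over all genes tested are printed beside. Each SE was obtained as the absolute log2 fold change over the root of its F. CPM uses TMM factors over 9 libraries, and list means and ratios use log2 CPM with a prior count of 0.5. Depth was 17119454 to 22811295 counts per library. Floors of 3 counts cover counting error only.

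The members and lists were chosen with earlier results of these data known. Besides the members, up to 4 called genes per list with the largest fold change in I/R against sham, the receptors, co-receptors and Vegfd, and the 3 genes most like each member were to be named. Plvap, Esm1, Pdgfb, Cldn5, Fabp4, Cd36, Ly6g, Nos3, Angpt4, Apela and Cxcr2 were named after their values were seen. So were Adipoq, Lep, Scd1, Nppa, Myl4, Myl7, Sln, Bmp10, Nr2f2, Stard10, Upk1b and Muc16. The fits were tested on simulated data. No pair of libraries agreed within sampling noise (smallest chi-square per degree of freedom 14.4, sham 2 and sham 3). Alternatives were DESeq2 1.42.0, RLE, library totals, no filter, 1 fit of all libraries in 3 groups, a replicate block, an adjusted p of at most 0.05, a prior count of 2 and libraries left out. SciPy 1.17.1 gave the exact permutation tests.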

Additional observations from a re-analysis of the deposited data

Results flagged for a closer look

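Flt1 in GXNI 3, at 255 CPM, stood apart from the other 5 I/R libraries, which lay between 179 and 198 CPM. Its gap to the nearest of them was 0.753 of the range of the 6 I/R libraries, above the 95% critical value of Dixon's test. The same test was applied to 18 sets of 6 libraries, the 10 genes and the 8 ratios and relative levels, of which chance alone marks about 1 in 20. GXNI 3 also had the highest mean of the endothelial cell markers, at 6.76 log2 CPM, and relative to them its Flt1 level of 1.23 lay among those of GXNI 1 and GXNI 2.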

How the results depend on the processing

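Of the 10 genes, none was called in any comparison with RLE normalization, library totals alone, 1 fit of all libraries in 3 groups or an adjusted p of at most 0.05. In MIRI against sham, 2 were called with DESeq2 and 3 without the filter, and 0 to 4 with 1 library left out. In GXNI against sham, 2 were called with DESeq2 and 2 without the filter, and 0 to 3 with 1 library left out. In I/R against sham, 2 were called with DESeq2 and 2 without the filter, and 0 to 2 with 1 library left out. In GXNI against MIRI, 0 were called with any 1 library left out and 1 (Pgf) without MIRI 2 and GXNI 3. The calls gained on leaving out 1 library came without MIRI 2 or GXNI 1.

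Of 300 log2 fold changes of members under settings other than leaving out 1 library, 275 kept their direction and their side of the threshold, 14 kept their direction and were now called, and 11 reversed. Of 270 with 1 library left out, 228, 10 and 32 did so. The 300 include the setting of an adjusted p of at most 0.05, which reuses the main fit, so its directions could not change. With library totals alone Angpt1 in MIRI against sham was -0.0036. Without MIRI 2 and GXNI 3, GXNI against MIRI gave -0.66 for Vegfa, 0.42 for Vegfb, -0.077 for Flt1, 0.050 for Tek and -2.53 for Apln, and I/R against sham gave -0.045 for Angpt1. With 1 library left out, the ranges in GXNI against MIRI were -0.51 to 0.35 for Vegfa, -0.21 to 0.29 for Vegfb, -2.19 to 0.91 for Pgf, -0.094 to 0.18 for Flt1, -0.38 to 0.033 for Kdr, -1.02 to 1.62 for Angpt1, -1.30 to 0.53 for Angpt2, -0.16 to 0.0092 for Tek and -1.99 to 2.01 for Apln. In MIRI against sham they were -0.29 to 0.15 for Vegfc and -1.42 to 0.48 for Angpt1, in GXNI against sham -0.18 to 0.58 for Vegfa and -1.0 to 0.65 for Angpt1, and in I/R against sham -0.37 to 0.061 for Vegfc and -0.32 to 0.32 for Angpt1. The cause of these reversals was not tested.

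The labels give the groups the same replicate numbers, but same-numbered samples did not deviate together in every pair (r from -0.461 to 0.726 between MIRI and GXNI), so the numbers were not taken to pair the samples. With a replicate block 0 members were called in each comparison. The block turned the log2 fold change of Angpt1 to -0.59 in MIRI against sham, -0.34 in GXNI against sham and -0.42 in I/R against sham, and that of Vegfa in GXNI against MIRI to -0.043. It lowered Pgf from 3.14 to 2.36 and Apln from 2.38 to 1.45 in MIRI against sham, from 2.87 to 1.88 and from 2.59 to 1.31 in GXNI against sham, and from 3.0 to 2.05 and from 2.47 to 1.26 in I/R against sham. Angpt2 went to 1.82, 1.5 and 1.69 in the same comparisons.

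Of the ratios and relative levels, 23 of 24 values under other settings and 67 of 72 with 1 library left out kept their direction and their side of the threshold. Kdr to Flt1 ranged from -0.53 to 0.11 with 1 library left out, and Pgf to Vegfb passed 0.05 before adjustment without MIRI 2, at a difference of 2.95. Flt1 relative to the endothelial markers stayed between -0.57 and -0.43 with 1 library left out, and was -0.58 without MIRI 2 and GXNI 3. Its p could not reach 0.05 without 1 sham library or without both of those, since too few arrangements of the samples remain.

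Each group holds 3 animals, and the I/R libraries of a member differ by up to 32.5-fold. The lowest values rest on few reads, 65 to 136 counts for Vegfc and 39 to 85 for Angpt2 in the sham libraries. The part of the heart sampled and the strand setting are not given in the sources used here.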
